A study of Mus musculus with 14 samples.

Results

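Transcripts of 10 genes of the transforming growth factor beta (TGFβ), activin and myostatin branch of signaling were followed in mouse forelimb buds with and without mesenchymal *Smad4*. They were found by exact match of their symbols in the count files, which list 23284 gene symbols: the ligands *Tgfb1*, *Tgfb2* and *Tgfb3*, the receptors *Tgfbr1*, *Tgfbr2* and *Tgfbr3*, myostatin (*Mstn*), its extracellular binding protein *Wfikkn2*, and the activin subunit genes *Inhba* and *Inhbb*. All 10 symbols were present. RNA-seq had been done on both forelimb buds of single embryos, pooled as 1 sample, at E10.0, when embryos had 30 somites, and at E10.5, when they had 35.

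The mutant embryos carried 1 constitutive null and 1 conditional *Smad4* allele with the Cre transgene (Smad4Δ/Δc PrxCreT/+; *n*=4 per stage). The controls, called wild-type here, were Smad4+/+ PrxCreT/+ (*n*=3 per stage), so that by their labels both genotypes carried Cre, and the strain was labelled NMRI. The sources differ on the cross: the labels name females homozygous for the conditional allele, which would yield no Smad4+/+ embryos, while the study's methods name heterozygous females and take the controls from the same litters. Cre was driven in the limb mesenchyme from regulatory sequences of *Prrx1*, which leaves ectoderm, endothelium, blood cells and the muscle precursors that enter the bud from the somites with their conditional allele intact and with 1 null allele in every cell. Whole buds were sequenced, so that fewer cells of a type and less RNA per cell cannot be told apart.

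TGFβ ligands are secreted in a latent complex with their own propeptide and, once released, bring together the type II receptor TGFBR2 and the type I receptor TGFBR1, which phosphorylates SMAD2 and SMAD3. These join SMAD4 and enter the nucleus. Activins and myostatin signal to the same SMADs through activin receptors, and myostatin is best known as a restraint on skeletal muscle growth that is made by muscle cells themselves. The paralogous secreted proteins WFIKKN1 and WFIKKN2 bind myostatin and its close relative GDF11 and block them.

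Counts on genes summed to 34066930 in the shallowest and 61691258 in the deepest library. Levels are given as CPM, a gene's counts scaled to a common library size, after normalization by the trimmed mean of M-values (TMM). *Smad4* was at 152 to 169 CPM in the 6 wild-type samples and at 32.9 to 46.0 CPM in the 8 mutant samples, with no overlap at either stage. Mutant samples numbered 4 and 5 stood apart at both stages: the ribosomal RNA precursor took 1.72% to 8.05% of their reads, against 0.151% to 0.478% in the 10 other libraries. They had 34066930 to 43317508 reads on genes, a range that also held wild-type replicate 1 of E10.5 (42531348). Each call between genotypes among the 10 genes is given below with and without mutant samples 4 and 5, as are some differences that were not called. The summed CPM of 10 limb mesenchyme markers was 1623 to 2179 over the 14 samples, with none of the 10 at 0 in any group. At E10.0 it was 1898 to 2133 in wild-type and 1623 to 1958 in mutant buds, and at E10.5 2043 to 2179 and 1880 to 2064. By the limits given below, 5 of the 10 were called lower and 0 higher in the mutant at E10.0. At E10.5, 4 were called lower and 1 higher. Over all genes tested, 6.61% and 3.73% were called. The median log2 fold change of the 10 markers was -0.30 and -0.23, beside -0.02 and -0.01 over all genes tested. The list included *Prrx2* and *Lhx2*, which the paper reports as SMAD4 target genes reduced in mutant buds. A lower list is therefore not a measure of the amount of mesenchyme.

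Sequence upstream of 3 of the genes is shown because the results below turn on them. *Mstn* and *Wfikkn2* were both upregulated between the stages, and *Wfikkn2* and *Tgfbr2* were upregulated in mutant buds at E10.5. Each run is the 250 bases before the 5′-most protein-coding transcript start (mm9 genome, GENCODE vM1), printed 5′ to 3′ on the gene's own strand. Capitals mark the hexamer CANNTG, the E-box letters that myogenic bHLH factors are known to bind, and the 4 letters AGAC or their reverse complement GTCT, the core that SMAD3 and SMAD4 are known to bind. The *Mstn* window lies at chr1:53118257-53118506 (plus strand), the *Wfikkn2* window at chr11:94104022-94104271 (minus strand) and the *Tgfbr2* window at chr9:116084384-116084633 (minus strand). The annotated *Wfikkn2* gene starts further upstream, at chr11:94107319, with a transcript not marked as protein-coding. This window therefore lies within the span of the gene.
Mstn: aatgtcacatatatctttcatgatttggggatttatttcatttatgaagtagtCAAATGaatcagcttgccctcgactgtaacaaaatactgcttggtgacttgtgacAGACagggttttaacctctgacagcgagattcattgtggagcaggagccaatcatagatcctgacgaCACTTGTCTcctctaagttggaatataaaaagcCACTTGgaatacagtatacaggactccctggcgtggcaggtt
Wfikkn2: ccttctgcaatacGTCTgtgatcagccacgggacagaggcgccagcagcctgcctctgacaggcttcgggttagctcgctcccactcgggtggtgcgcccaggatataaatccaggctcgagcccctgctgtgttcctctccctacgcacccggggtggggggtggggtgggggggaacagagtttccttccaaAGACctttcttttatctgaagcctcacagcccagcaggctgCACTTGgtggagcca
Tgfbr2: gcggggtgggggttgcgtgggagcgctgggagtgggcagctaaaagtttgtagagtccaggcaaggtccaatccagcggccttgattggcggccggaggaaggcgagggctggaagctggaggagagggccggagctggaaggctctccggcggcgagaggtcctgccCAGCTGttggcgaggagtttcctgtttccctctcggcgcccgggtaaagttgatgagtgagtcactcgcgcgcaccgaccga
The *Mstn* window held 3 E-boxes and 2 AGAC or GTCT matches, of which 1 GTCT overlapped the last letter of an E-box. The *Wfikkn2* window held 1 E-box and 2 AGAC or GTCT matches, and the *Tgfbr2* window held 1 E-box and none of the SMAD letters. Among windows of the same length before 22373 protein-coding genes, 63.3% held at least 1 E-box and 10.3% at least 3, while 82.1% held at least 1 and 53.1% at least 2 AGAC or GTCT matches. Over the 10 genes, E-boxes numbered 0 in *Tgfb1*, *Tgfbr1*, *Inhba* and *Inhbb*, 1 in *Tgfb2*, *Tgfb3*, *Tgfbr2*, *Tgfbr3* and *Wfikkn2*, and 3 in *Mstn*. These matches describe letters in these windows only.

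The genes differed widely in level. Per kilobase of exon, which allows genes to be compared, *Tgfbr1* stood highest in every group, at 51.5 ± 3.22 CPM per kb in wild-type buds at E10.0 (SD, *n*=3). Lengths are the union of all exons of a gene in GENCODE vM1, while the study's methods name a refGene annotation. The order of genes close in level is therefore approximate. *Tgfb2* followed at 10.2 ± 0.529 CPM per kb, above every sample of the other ligands and receptors. *Tgfbr3* (4.40 ± 0.159 CPM per kb), *Tgfb3* (4.23 ± 0.422 CPM per kb) and *Tgfbr2* (3.62 ± 0.168 CPM per kb) came next, with overlapping samples between neighbours in this order. *Tgfb1* was the lowest of the 3 TGFβ ligands at 2.60 ± 0.237 CPM per kb. *Mstn* and *Wfikkn2* were at 0.265 ± 0.111 and 0.201 ± 0.0449 CPM per kb and overlapped each other. *Inhbb* and *Inhba* were lowest, at 0.0711 ± 0.0261 and 0.0170 ± 0.00609 CPM per kb.

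This order changed in mutant buds at E10.5. There *Wfikkn2* reached 2.50 ± 0.308 CPM per kb (SD, *n*=4) and overlapped *Tgfb1* (2.28 ± 0.397 CPM per kb), with both above *Mstn* (1.23 ± 0.243 CPM per kb). In wild-type buds of the same stage *Wfikkn2* was at 0.732 ± 0.224 CPM per kb, below all samples of *Tgfb1* (2.62 ± 0.338 CPM per kb) and overlapping *Mstn* (1.03 ± 0.290 CPM per kb). *Tgfb3* was the third gene in order in both genotypes at E10.5, with no overlap with the gene below it.

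**Figure D1:**
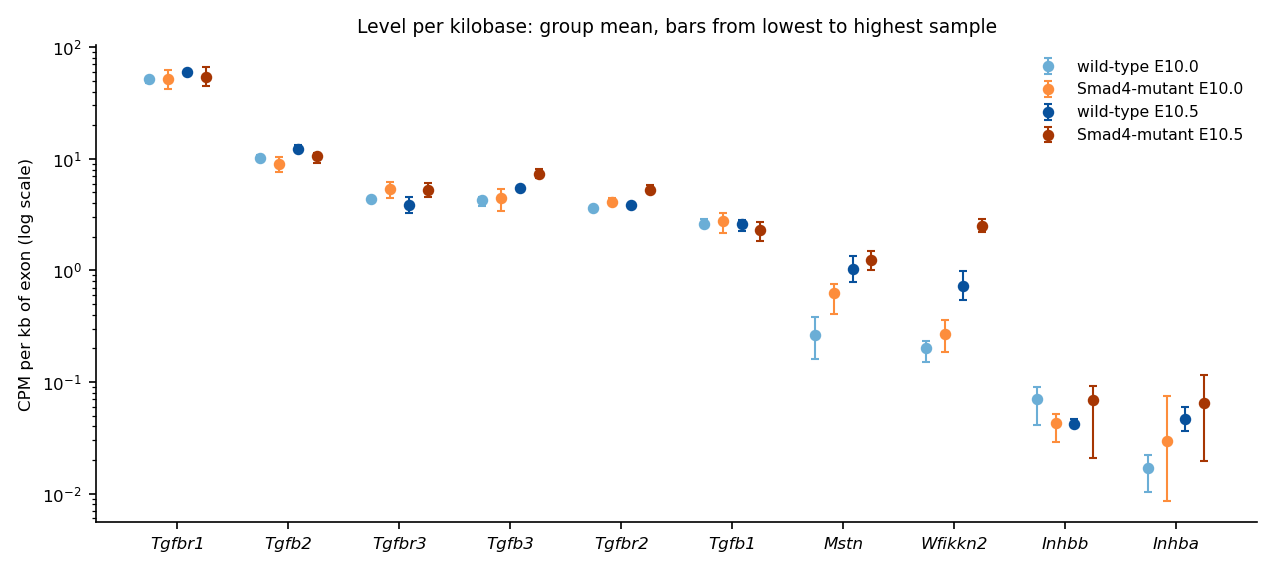
Level of the 10 genes in CPM per kilobase of exon on a log axis; points are group means (wild-type *n*=3, mutant *n*=4 per stage) and bars run from the lowest to the highest sample. *Tgfbr1* is highest in every group, and *Wfikkn2* moves from 0.732 CPM per kb in wild-type to 2.50 CPM per kb in mutant buds at E10.5.

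Of the 10 genes, 8 passed the filter of at least 1 CPM in at least 3 samples and were tested; *Inhba* and *Inhbb* did not. Calls needed an adjusted *P* no higher than 0.1 (edgeR, Benjamini-Hochberg over all 12393 genes tested) and a change of 1.2-fold or more. The question put to the genotype comparisons was which genes of the branch changed when mesenchymal SMAD4 was lost. At E10.0, 1 of the 8 genes was called, *Mstn*, which was upregulated; over all genes tested, 6.61% were called and 3.33% were called higher in the mutant. At E10.5, 3 of the 8 were called, *Tgfbr2*, *Tgfbr3* and *Wfikkn2*, all upregulated, while 3.73% of all genes were called and 2.19% were called higher. The median log2 fold change of the 8 genes was 0.13 at E10.0 and 0.34 at E10.5, beside -0.02 and -0.01 over all genes tested. The stage comparisons within each genotype asked which genes changed as the bud grew from 30 to 35 somites. In wild-type buds 2 of the 8 were called, *Mstn* and *Wfikkn2* (10.1% of all genes, 5.39% higher at E10.5), and in mutant buds 4, *Tgfb3*, *Tgfbr2*, *Mstn* and *Wfikkn2* (19.2% of all genes, 10.8% higher). Every one of these calls was a higher level at E10.5. The genotype and stage comparisons share samples and are not independent of each other. In libraries numbered 1 to 3 alone, 1 and 3 of the genes were called between genotypes at E10.0 and E10.5, 4 between stages in wild-type and 6 in mutant buds, all higher. Over all genes the same fits called 16.4%, 4.27%, 14.9% and 17.5%.

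**Figure D2:**
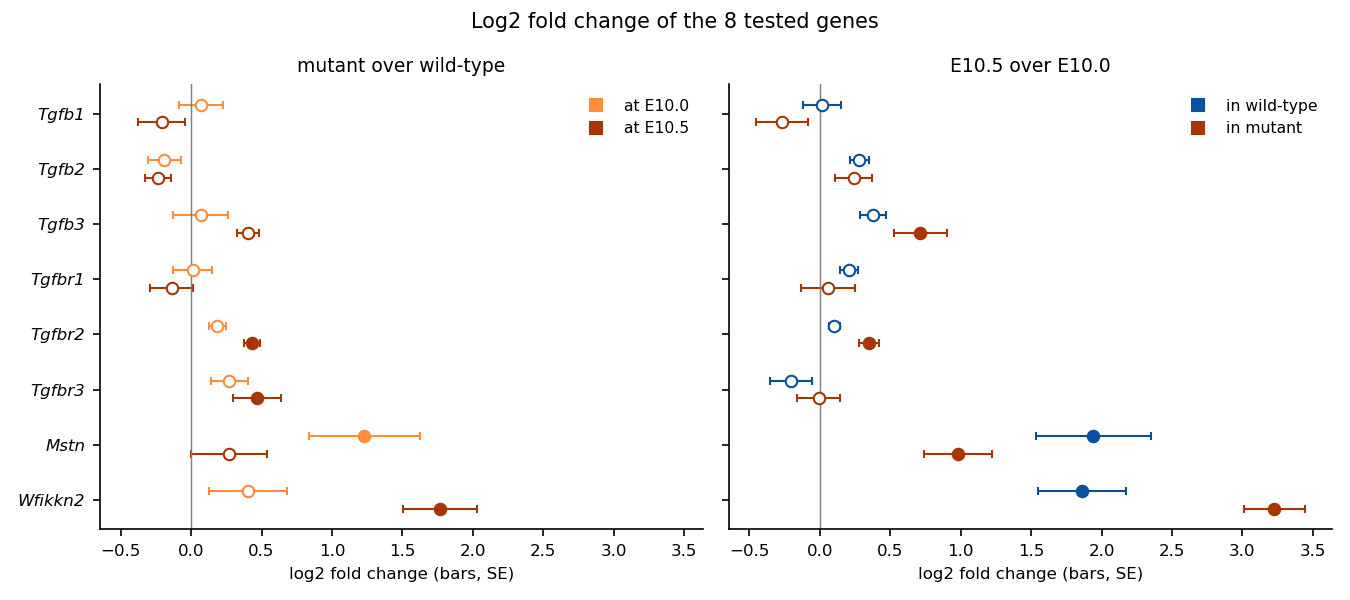
Log2 fold change with its SE for the 8 tested genes, mutant over wild-type (left) and E10.5 over E10.0 (right); filled points were called and open points were not. *Wfikkn2* has the largest value on both sides, 1.77 at E10.5 between genotypes and 3.23 between stages in the mutant.

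*Wfikkn2* (mm9 chr11:94097270-94107319) had the largest fold change of the 8 tested genes between genotypes at E10.5 and between stages in mutant buds. At E10.0 its level was 0.895, 0.573 and 0.836 CPM in wild-type replicates 1, 2 and 3 and 0.907, 0.710, 1.15 and 1.38 CPM in mutant replicates 1, 3, 4 and 5. The groups overlapped, and the difference (log2 fold change 0.40 ± 0.275 SE) was not called (adjusted *P*=0.433, edgeR). In libraries numbered 1 to 3 alone it was 0.09 (adjusted *P*=0.891, edgeR).

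At E10.5 the values were 2.07, 2.59 and 3.74 CPM in wild-type replicates 1, 2 and 3 and 9.10, 9.58, 11.2 and 8.37 CPM in mutant replicates 1, 2, 4 and 5. Every mutant sample was above every wild-type sample. *Wfikkn2* was upregulated 3.40-fold in the mutant (log2 fold change 1.77 ± 0.261 SE, adjusted *P*=5.59e-12, edgeR), and in libraries numbered 1 to 3 alone the log2 fold change was 1.75 (adjusted *P*=9.5e-10).

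From E10.0 to E10.5 *Wfikkn2* rose in both genotypes, with every E10.5 sample above every E10.0 sample. The rise was 3.63-fold in wild-type (log2 fold change 1.86 ± 0.310 SE, adjusted *P*=1.18e-09, edgeR) and 9.35-fold in mutant buds (3.23 ± 0.217 SE, adjusted *P*=1.45e-42, edgeR). The difference between these rises, tested as the interaction of stage and genotype with edgeR's quasi-likelihood test, was 1.37 ± 0.378 SE on the log2 scale and was not called (unadjusted *P*=0.00126, adjusted *P*=0.289). DESeq2 called it (1.35, adjusted *P*=0.025).

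The interaction was called for none of the 8 genes by the quasi-likelihood test, for 1 by DESeq2, and for 3 at an unadjusted *P* under 0.05. Of all genes tested, 0.186% were called by the quasi-likelihood test and 0.702% by DESeq2, and 5.76% had an unadjusted *P* under 0.05 in the former. The other 2 at an unadjusted *P* under 0.05 were *Tgfbr2* (0.25 ± 0.0816 SE, adjusted *P*=0.797, edgeR) and *Mstn* (-0.96 ± 0.474 SE, adjusted *P*=0.797, edgeR).

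*Wfikkn1*, which encodes the paralogous inhibitor, went the other way between the stages. It was at 7.04 CPM on average in wild-type buds at E10.0 and at 1.67 CPM at E10.5 (log2 fold change -2.08 ± 0.257 SE, adjusted *P*=1.73e-11, edgeR). In mutant buds it was at 4.64 and 1.09 CPM (-2.09 ± 0.263 SE, adjusted *P*=5.32e-15, edgeR). Between genotypes it was not called, with a log2 fold change of -0.61 at E10.0 (adjusted *P*=0.129) and, with all mutant samples below all wild-type samples, -0.62 at E10.5 (adjusted *P*=0.341, edgeR). The highest mutant sample at E10.5 (1.237 CPM, 38 reads) lay very close to the lowest wild-type sample (1.247 CPM, 57 reads).

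*Mstn* (mm9 chr1:53118507-53124923), which encodes myostatin and is best known as a product of muscle, differed between genotypes at E10.0. There it was at 1.02, 0.429 and 0.682 CPM in wild-type replicates 1, 2 and 3, which stand for 56, 21 and 31 reads. The mutant replicates 1, 3, 4 and 5 were at 2.04, 1.09, 1.86 and 1.77 CPM, from 119, 63, 68 and 72 reads. All 4 mutant samples were above all 3 wild-type samples, although the lowest mutant sample (1.09 CPM) lay close to the highest wild-type sample (1.02 CPM). *Mstn* was upregulated 2.35-fold (log2 fold change 1.23 ± 0.392 SE, adjusted *P*=0.0024, edgeR), and it was called in all 7 fits that left out 1 sample of either group (log2 fold change 0.97 to 1.60, highest adjusted *P*=0.0591) and in libraries numbered 1 to 3 alone (1.14, adjusted *P*=0.0159).

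At E10.5 *Mstn* was at 2.09, 2.57 and 3.61 CPM in wild-type replicates 1, 2 and 3 and at 3.75, 3.98, 2.80 and 2.70 CPM in mutant replicates 1, 2, 4 and 5. The groups overlapped and the difference (0.27 ± 0.267 SE) was not called (adjusted *P*=0.882, edgeR). Between the stages *Mstn* rose 3.84-fold in wild-type buds (log2 fold change 1.94 ± 0.408 SE, adjusted *P*=6.79e-08, edgeR) and 1.98-fold in mutant buds (0.98 ± 0.241 SE, adjusted *P*=0.00126, edgeR). Within the mutant libraries the rise in mean CPM was 1.31 on the log2 scale in numbers 1 to 3 and 0.60 in numbers 4 and 5, with 2 samples per stage in each.

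Muscle genes moved with *Mstn* at E10.0. The summed CPM of 9 markers of differentiating muscle was 13.8 to 19.7 in wild-type and 29.9 to 36.4 in mutant buds, with none of the 9 at 0, and 5 of the 8 tested were called higher. Among them was *Myog*, the myogenic factor of differentiating myoblasts, which went from 0.206 to 3.68 CPM on average (log2 fold change 4.14 ± 0.457 SE, adjusted *P*=1.43e-06, edgeR). *Myf5*, an early myogenic factor, was at 0.579 CPM in wild-type and 1.40 CPM in mutant buds (1.26 ± 0.359 SE, adjusted *P*=0.0022, edgeR), and it was 1 of the 2 of 6 tested muscle precursor markers called higher. The summed CPM of the 8 muscle precursor markers overlapped between genotypes (133.5 to 152 in wild-type, 145 to 174.5 in mutant).

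At E10.5 the muscle list was lower in mutant buds. The differentiating muscle sum was 21.1 to 49.8 CPM in wild-type and 16.7 to 21.8 CPM in mutant buds, with 7 of 8 tested called lower and 1, *Chrna1*, called higher, while *Wfikkn2* was 3.40-fold higher and *Mstn* was not called. *Myf5* overlapped between genotypes at this stage, at 5.20 CPM in wild-type and 4.30 CPM in mutant buds. Between the stages *Myf5* rose in wild-type (log2 fold change 3.15 ± 0.359 SE, adjusted *P*=1.02e-20, edgeR) and in mutant buds (1.62 ± 0.263 SE, adjusted *P*=4.53e-09, edgeR). Its list did not move as one: of the 6 muscle precursor markers tested between stages, 2 were called higher and 1 lower in wild-type, and 2 higher and 2 lower in mutant buds. Of the 8 tested markers of differentiating muscle, 6 were called higher and 1 lower in wild-type buds, and none higher and 5 lower in mutant buds, where *Mstn* and *Wfikkn2* rose.

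Markers of 2 other cell types also moved with *Mstn* at E10.0. The 6 macrophage markers summed to 2.68 to 5.68 CPM in wild-type and 5.98 to 7.90 CPM in mutant buds, and 2 of 5 tested were called higher. The 8 markers of mesothelium and body wall summed to 13.9 to 20.9 CPM and 21.2 to 43.6 CPM, and 3 of 6 tested were called higher. Neither list had a gene at 0 in every sample of a group. At E10.5 the mesothelium and body wall sum was 15.9 to 19.9 CPM in wild-type and 8.06 to 12.1 CPM in mutant buds. The 7 somite and sclerotome markers summed to 154.5 to 192 CPM in wild-type and 203 to 232 CPM in mutant buds. Their sum was higher in the mutant, as was *Wfikkn2*, but the list was mixed. Of 4 tested, 2 were called higher and 1 lower. The median log2 fold change of this list was 0.085, beside -0.01 over all genes tested. From E10.0 to E10.5, all 5 tested macrophage markers and 3 of 4 tested somite and sclerotome markers were called higher in each genotype, with 1 somite and sclerotome marker called lower in mutant buds. Of the 6 tested mesothelium and body wall markers, 1 was called higher and 0 lower in wild-type buds. In mutant buds, where *Mstn* rose, 0 were called higher and 5 lower. The part of these cell types in the levels of *Mstn* and *Wfikkn2* was not tested.

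**Figure D3:**
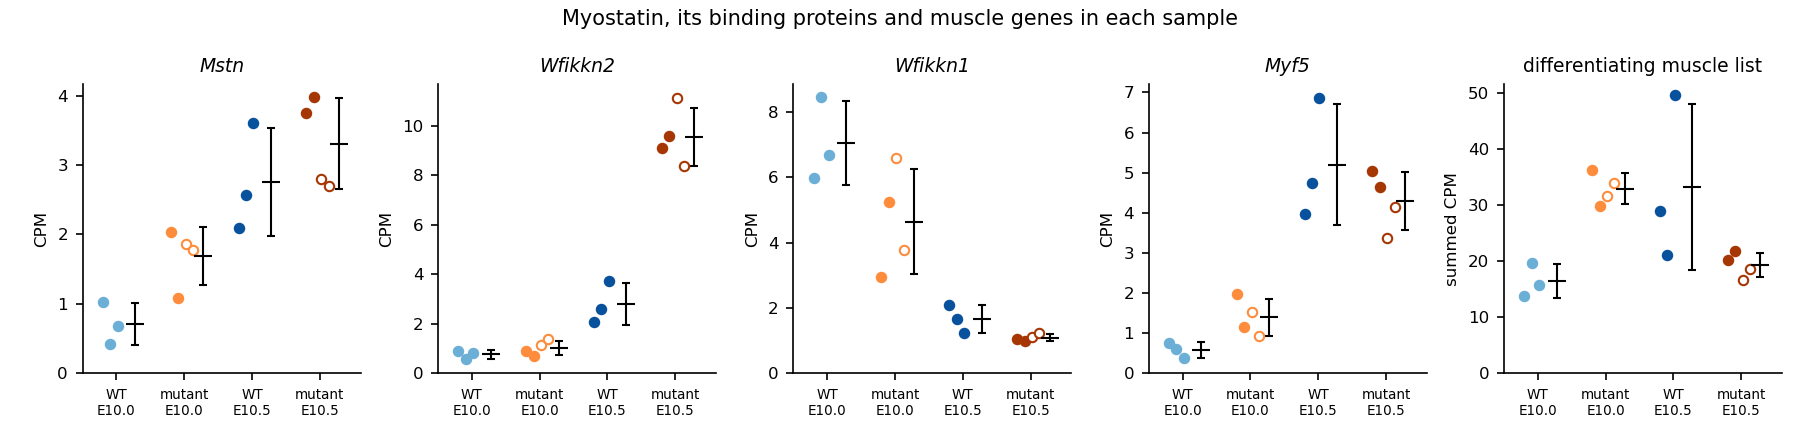
CPM of *Mstn*, *Wfikkn2*, *Wfikkn1* and *Myf5*, and summed CPM of 9 differentiating muscle markers, in each sample (points; open for mutant replicates 4 and 5) with the group mean and SD. At E10.5 every mutant sample is above wild-type for *Wfikkn2* (8.37 to 11.2 against 2.07 to 3.74 CPM), while the muscle sum is 16.7 to 21.8 in mutant and 21.1 to 49.8 in wild-type.

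*Tgfbr2* (mm9 chr9:115993415-116084383) encodes the type II receptor that binds TGFβ ligands first. At E10.0 it was at 28.8, 28.2 and 30.8 CPM in wild-type replicates 1, 2 and 3 and at 31.2, 32.2, 33.7 and 36.3 CPM in mutant replicates 1, 3, 4 and 5. The groups did not overlap, but the difference was small (log2 fold change 0.19 ± 0.0612 SE) and was not called (adjusted *P*=0.275, edgeR).

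At E10.5 the wild-type samples lay within 31.0 to 31.6 CPM, and mutant replicates 1, 2, 4 and 5 were at 47.1, 41.4, 39.9 and 41.0 CPM. *Tgfbr2* was upregulated 1.35-fold (0.43 ± 0.0540 SE, adjusted *P*=0.00046, edgeR), with all mutant samples above all wild-type samples, and it was called in each of the 7 fits that left out 1 sample. In libraries numbered 1 to 3 alone the log2 fold change was 0.51 (adjusted *P*=3.72e-05). Between the stages it rose 1.27-fold in mutant buds (0.35 ± 0.0715 SE, adjusted *P*=0.000933, edgeR) and was not called in wild-type buds (0.10 ± 0.0393 SE, adjusted *P*=0.617).

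*Tgfbr3* (mm9 chr5:107535589-107718648) encodes betaglycan, the co-receptor that presents TGFβ2 to the signaling receptors and that also binds inhibin. At E10.0 it was at 29.8, 27.7 and 28.9 CPM in wild-type replicates 1, 2 and 3 and at 30.2, 28.9, 39.6 and 40.5 CPM in mutant replicates 1, 3, 4 and 5. Only mutant samples 4 and 5 stood well above wild-type, and the difference was not called (0.27 ± 0.131 SE, adjusted *P*=0.286, edgeR).

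At E10.5 it was at 30.0, 21.3 and 23.8 CPM in wild-type and at 39.4, 35.7, 33.5 and 29.6 CPM in mutant replicates 1, 2, 4 and 5. The highest wild-type sample and the lowest mutant sample overlapped. *Tgfbr3* was called upregulated 1.38-fold (0.47 ± 0.169 SE, adjusted *P*=0.0346, edgeR), and the call was lost without mutant replicate 1 (adjusted *P*=0.133), without wild-type replicate 2 (0.392) or without wild-type replicate 3 (0.186), and with the quasi-likelihood test (0.125). It was retained in libraries numbered 1 to 3 (0.60, adjusted *P*=0.000288).

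The change of *Tgfbr3* with stage in mutant buds differed between the 2 kinds of mutant libraries. In numbers 1 to 3 its mean went from 29.6 CPM at E10.0 to 37.5 CPM at E10.5, and in numbers 4 and 5 from 40.0 to 31.6 CPM. Over all 8 mutant samples the log2 fold change was -0.01 ± 0.154 SE and was not called (adjusted *P*=0.982, edgeR); in libraries numbered 1 to 3 it was 0.35 and called (adjusted *P*=0.0693). The part of the ribosomal RNA share or of the depth of numbers 4 and 5 in this was not tested.

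*Tgfbr1* (mm9 chr4:47366094-47427803), which encodes the type I receptor kinase ALK5, was not called in any comparison. Its levels were 314 to 356 CPM in wild-type and 275 to 405.5 CPM in mutant buds at E10.0, and 371 to 409 CPM and 293 to 432 CPM at E10.5, with overlap between genotypes at both stages. The spread in the mutant followed library number: replicates 1 to 3 had means of 388 CPM at E10.0 and 413 CPM at E10.5, and replicates 4 and 5 had 290.2 and 293 CPM. In libraries numbered 1 to 3 alone the log2 fold change at E10.0 was 0.22 with an adjusted *P* of 0.0679 (edgeR), a fold change under the limit, against 0.01 ± 0.138 SE (adjusted *P*=0.982) over all samples.

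Among the ligands, *Tgfb3* (mm9 chr12:87397694-87419991) changed with stage in mutant buds. Mutant replicates 1, 3, 4 and 5 were at 12.3, 11.6, 18.2 and 18.1 CPM at E10.0, and mutant replicates 1, 2, 4 and 5 at 22.6, 22.9, 27.2 and 25.8 CPM at E10.5. All E10.5 samples were above all E10.0 samples, and within each stage numbers 4 and 5 were the higher pair. *Tgfb3* rose 1.64-fold (0.71 ± 0.187 SE, adjusted *P*=9.63e-06, edgeR), by 0.93 on the log2 scale in numbers 1 to 3 and 0.55 in numbers 4 and 5.

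In wild-type buds *Tgfb3* was at 15.4, 12.7 and 14.8 CPM at E10.0 and at 17.6, 18.8 and 19.3 CPM at E10.5. The stages did not overlap, but the change (0.38 ± 0.0939 SE) was not called (adjusted *P*=0.138, edgeR). Between genotypes *Tgfb3* was not called at E10.0 (0.07 ± 0.194 SE, adjusted *P*=0.868) or at E10.5 (0.40 ± 0.0771 SE, adjusted *P*=0.159, edgeR), where all mutant samples were above all wild-type samples. When only the groups compared entered the fit, the E10.5 difference was called (0.41, adjusted *P*=0.0113). In libraries numbered 1 to 3 alone it was 0.30 and was not called (adjusted *P*=0.189, edgeR).

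*Tgfb2* (mm9 chr1:188447065-188529871), the most abundant ligand, was the 1 tested gene with a lower mean in the mutant at both stages. At E10.0 it was at 47.1 to 52.0 CPM in wild-type and 36.9 to 50.5 CPM in mutant buds, which overlapped (-0.19 ± 0.117 SE, adjusted *P*=0.375, edgeR). At E10.5 wild-type replicates 1, 2 and 3 were at 56.5, 58.7 and 64.0 CPM and mutant replicates 1, 2, 4 and 5 at 54.9, 54.9, 49.2 and 44.2 CPM. All mutant samples were below all wild-type samples, but the difference (-0.23 ± 0.0922 SE) was not called (adjusted *P*=0.432, edgeR). In libraries numbered 1 to 3 alone it was -0.11 (adjusted *P*=0.701, edgeR).

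Between the stages *Tgfb2* changed by 0.28 ± 0.0685 SE in wild-type (adjusted *P*=0.141, edgeR) and by 0.24 ± 0.133 SE in mutant buds (adjusted *P*=0.0966, edgeR), where its 1.18-fold change was under the fold limit. Same-numbered mutant samples of the 2 stages deviated together, although they were different embryos. With the replicate number as a block over all 14 samples, which does not rest on paired embryos, *Tgfb2* was called in the mutant (0.27, adjusted *P*=0.0353, edgeR). In libraries numbered 1 to 3 alone *Tgfb2* was called as well (0.31, adjusted *P*=0.0671, edgeR). It was also called without mutant replicate 3 of E10.0 (0.33, adjusted *P*=0.0225), mutant replicate 4 of E10.0 (0.28, adjusted *P*=0.0728) or mutant replicate 5 of E10.5 (0.30, adjusted *P*=0.0395).

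*Tgfb1* (mm9 chr7:26472021-26490096), the ligand best known from immune regulation and fibrosis, stayed within 4.66 to 8.39 CPM over the 14 samples. All 4 of its comparisons overlapped, with log2 fold changes of 0.07 ± 0.154 SE and -0.21 ± 0.169 SE between genotypes at E10.0 and E10.5, and 0.01 ± 0.134 SE and -0.27 ± 0.186 SE between stages in wild-type and mutant buds. The adjusted *P* values were 0.274 to 0.987 (edgeR). Mutant replicates 4 and 5 were above the other mutant samples at both stages, and in libraries numbered 1 to 3 the log2 fold change between genotypes was -0.14 at E10.0 (adjusted *P*=0.616) and -0.41 at E10.5 (adjusted *P*=0.251, edgeR).

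The activin genes were close to the limit of detection. *Inhba* (mm9 chr13:16103684-16119044), the activin βA gene, had 1 to 13 reads per sample, or 0.0171 to 0.231 CPM. *Inhbb* (mm9 chr1:121312042-121318825), the βB gene, had 5 to 21 reads per sample, or 0.0889 to 0.391 CPM. In a fit with no filter on low counts neither was called in any of the 5 comparisons (lowest unadjusted *P* 0.0986 for *Inhba* and 0.0534 for *Inhbb*; adjusted *P* 0.328 to 1, edgeR). At this depth a change in either gene could be missed.

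**Figure D4:**
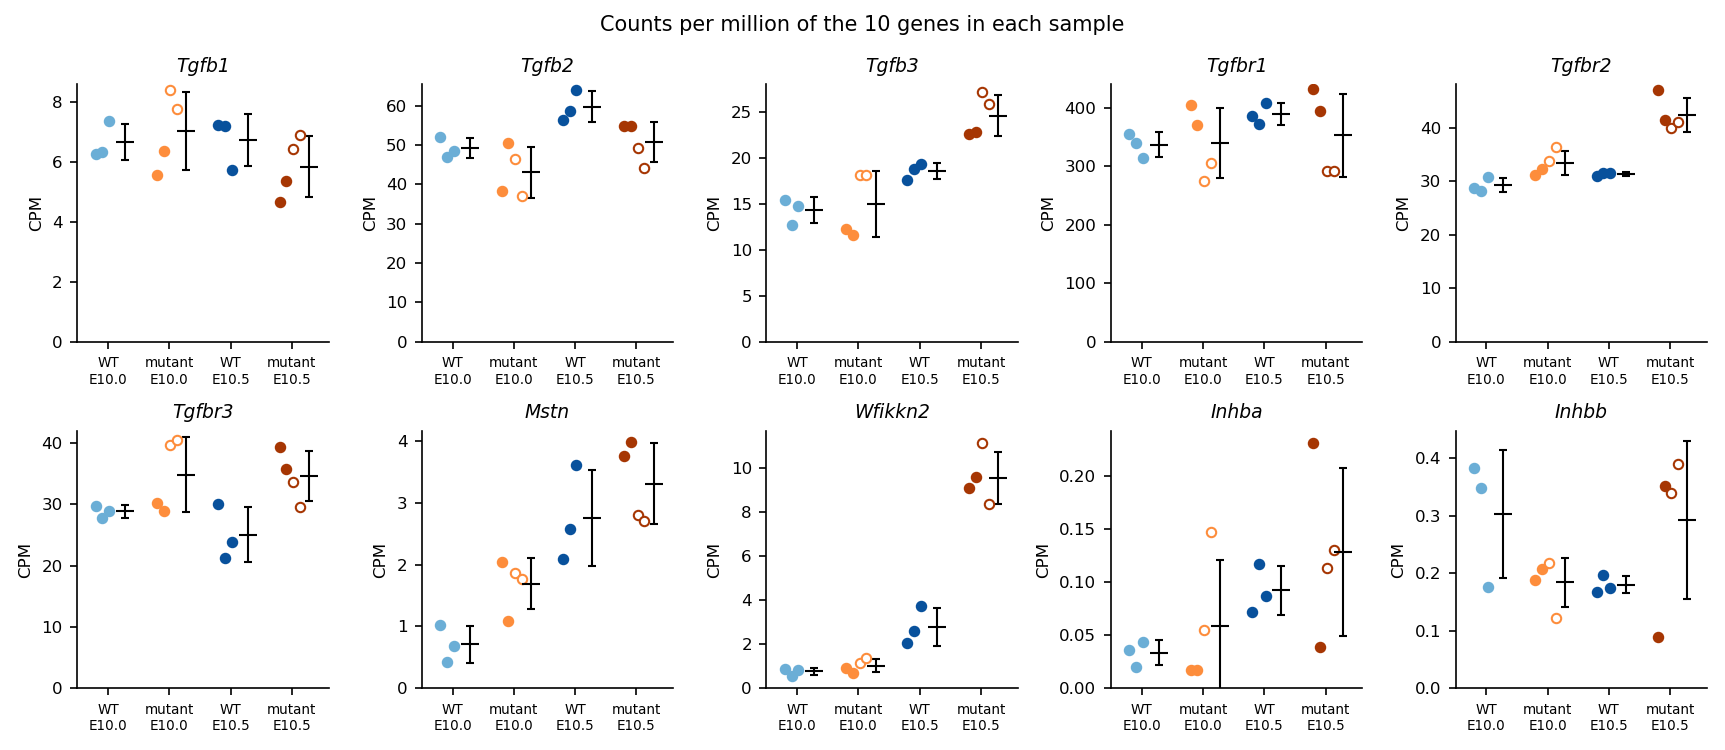
CPM of each of the 10 genes in each of the 14 samples (points; open for mutant replicates 4 and 5), with the group mean and SD beside them; every axis starts at 0. *Mstn* is higher in all mutant samples at E10.0, and *Wfikkn2* and *Tgfbr2* in all mutant samples at E10.5. In mutant buds at E10.0, *Tgfb1*, *Tgfb3*, *Tgfbr1*, *Tgfbr2*, *Tgfbr3*, *Wfikkn2* and *Inhba* separate open from filled points.

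Other genes of the branch were taken from 5 lists of 58 genes, of which 48 were tested. Between genotypes 4 were called higher and 3 lower at each stage, with a median log2 fold change of -0.01 at both stages, beside -0.02 and -0.01 over all genes tested. At both stages the lower genes included *Smad7*, which encodes the inhibitory SMAD that TGFβ and BMP signals induce, and *Pmepa1*, a TGFβ-induced inhibitor of the pathway. *Smad7* went from 22.5 to 15.8 CPM at E10.0 (-0.51 ± 0.0856 SE, adjusted *P*=0.000497, edgeR) and from 21.5 to 15.7 CPM at E10.5 (-0.46 ± 0.0811 SE, adjusted *P*=0.00336). *Pmepa1* fell by 0.48 and 0.45 on the log2 scale (adjusted *P*=0.015 and 0.0293, edgeR); the call at E10.0 was lost without wild-type replicate 3 (adjusted *P*=0.217), and the call at E10.5 was lost without mutant replicate 5 or any 1 wild-type sample (highest adjusted *P*=0.175) and in libraries numbered 1 to 3 (0.132).

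In the latent complex and activation list, 0 of 11 tested genes were called higher and 1 lower at E10.0, and 2 higher and none lower at E10.5. *Itgb5*, an integrin subunit, was the lower gene at E10.0 (153 to 122 CPM, -0.33 ± 0.0471 SE, adjusted *P*=0.0131, edgeR). *Thbs1*, the thrombospondin that can release active TGFβ, went from 45.4 to 63.7 CPM at E10.5 (0.49 ± 0.144 SE, adjusted *P*=0.000803, edgeR). *Itgb8*, a subunit of the integrin that activates latent TGFβ, went from 2.11 to 3.42 CPM at E10.5 (0.70 ± 0.150 SE, adjusted *P*=0.00515, edgeR), and its call was lost without wild-type replicate 3 (adjusted *P*=0.108).

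Of 10 tested activin and myostatin partners, 1 was called higher at each stage and none lower. At E10.0 it was *Pcsk5*, a proprotein convertase (17.5 to 21.8 CPM, 0.32 ± 0.0460 SE, adjusted *P*=0.0319, edgeR), whose call was lost without mutant replicate 5, wild-type replicate 2 or wild-type replicate 3 (highest adjusted *P*=0.202). At E10.5 it was *Tll1*, a tolloid-like protease of the family that releases myostatin from its propeptide (3.96 to 5.79 CPM, 0.55 ± 0.0727 SE, adjusted *P*=0.0626, edgeR); with a sample left out its call held in 1 of 7 fits, the one without mutant replicate 5 (highest adjusted *P* of the others 0.283). None of the 5 co-receptors and pseudoreceptors was called between genotypes.

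Of the 16 tested response genes, 3 were called higher and 2 lower at E10.0, and 1 higher and 3 lower at E10.5. The lower genes at both stages were *Smad7* and *Pmepa1*, described above, joined at E10.5 by *Acta2*. *Smad7* and *Pmepa1* were also members of the list of receptor SMADs and their inhibitors. The higher genes at E10.0 were *Acta2* and *Tagln*, smooth muscle genes that TGFβ induces in culture, and *Wisp1* (log2 fold changes 1.52, 0.97 and 0.61; adjusted *P*=0.00121, 0.00228 and 0.00142, edgeR). *Acta2* was called lower at E10.5, from 3.76 to 1.54 CPM (-1.27 ± 0.483 SE, adjusted *P*=0.00398, edgeR), with overlapping groups, and its interaction of stage and genotype was called (-2.78 ± 0.543 SE, adjusted *P*=0.0609); the E10.5 call was lost without wild-type replicate 3 (adjusted *P*=0.249) and in libraries numbered 1 to 3 (0.182). The markers of differentiating muscle lay the same way as *Acta2*, with 5 of 8 called higher at E10.0, 7 of 8 called lower at E10.5 and 4 called lower in the interaction, and their part in its level was not tested. *Scx*, the tendon progenitor factor, was called higher at E10.5, from 8.71 to 15.5 CPM (0.83 ± 0.159 SE, adjusted *P*=0.000831, edgeR), and in libraries numbered 1 to 3 its log2 fold change was 0.60 (adjusted *P*=0.0318). Between stages, 9 of the 48 genes were called higher and 3 lower in wild-type buds, and 9 higher and 4 lower in mutant buds. Over all genes tested, 10.1% and 19.2% were called. Of the 16 response genes, 8 were called higher and 0 lower in wild-type buds (median log2 fold change 0.41), and 4 higher and 0 lower in mutant buds (0.12). Among the wild-type calls of this list, only those of *Acta2* and *Scx* held in all 6 fits that left out 1 sample.

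The genes whose levels ran most like the members called between genotypes were listed as a description, by Pearson's *r* of log2(CPM + 1) over the 14 samples, which share the groups and the depth. For *Wfikkn2* they included *Cdh22* (*r*=0.979) and *Nfatc2* (0.979). For *Mstn* they were *Msh3* (0.972), *Ehbp1* (0.970) and *Mrc1* (0.959), the last of which encodes a mannose receptor of macrophages. For *Tgfbr2* they were *Gsg1l* (0.940), *Cttnbp2* (0.935) and *Arhgap18* (0.935), and for *Tgfbr3* *Tada2b* (0.926), *Rgl1* (0.882) and 2410131K14Rik (0.878).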

How the data were processed

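The authors deposited raw counts of reads per gene symbol for each of the 14 samples: single 50-base reads of an unstranded polyA library were aligned to mm9 with TopHat2 2.0.13 and counted with HTSeq, per the labels. Reads from a gene and an antisense partner cannot be told apart. No column was left unmapped. Symbols were placed by the NCBIM37 annotation (GENCODE vM1) or RefSeq names (23166 of 23284); those on X, Y and M (1041) were dropped, and 12393 genes that reached 1 CPM in 3 or more libraries were kept. As the study's methods state, the exact test of edgeR was used (edgeR 4.0.16, R 4.3.3) after TMM scaling (factors 0.934 to 1.03), with tag-wise dispersions from the 14 libraries together (prior degrees of freedom 10) and *P* values adjusted by Benjamini-Hochberg. Calls needed an FDR no higher than 0.1 and a change of 1.2-fold or more. The interaction was tested with edgeR's quasi-likelihood test. SEs come from the replicate variances of log2 CPM with a prior count of 2, and are understated where a gene has few reads. The tests were tried on simulated data with known changes.

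Replicates are single embryos. Within groups, no 2 libraries agreed within counting error (smallest chi-square 12.2 for each degree of freedom), and none was taken as a duplicate. Same-numbered samples deviated together over the 3 number pairs of the mutant stage comparison (*r*=0.21 to 0.56), but they were different embryos. Unlike numbers did so too within numbers 1 to 3 (*r*=0.10 to 0.29) and within numbers 4 and 5 (0.30 and 0.21). Between these 2 kinds of libraries every *r* was negative. The main tests did not use the numbers. In the other comparisons *r* of same-numbered samples was -0.23 to 0.14. Alternatives were DESeq2 1.42.0, the quasi-likelihood test, a replicate block, RLE size factors, no filter, other sample choices and each sample left out. The genes, lists and tests were chosen with earlier results of these data known. Named were the 10 genes, *Smad4*, pathway-list genes called between genotypes (at most 8 per comparison by smallest *P*), marker lists as sums with single markers that moved with a member, and the 3 genes most correlated with each called member, of which 1 is not reported here. *Wfikkn1* was named after its values were seen. Figures were drawn with matplotlib 3.10.9 and Python 3.11.15.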

Additional observations from a re-analysis of the deposited data

Results flagged for a closer look

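In 1 of the 20 mutant groups examined for a sample far from the others, the lowest value stood apart: *Inhbb* was at 0.0889 CPM (5 reads) in mutant replicate 1 at E10.5, against 0.340 to 0.391 CPM in the other 3 mutant samples of that stage. Chance flags about 1 in 20 such groups.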

How the results depend on the processing

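Of the log2 fold changes of the 8 tested genes refitted with 1 sample left out, 528 kept their direction and their side of the threshold, 20 changed sign, 9 gained a call and 3 lost one. Each of the 14 samples was left out for every comparison, so that many of these fits kept the compared groups whole. Such fits could move the fold change little: for *Tgfbr3* between genotypes at E10.5 they gave 0.469 to 0.476. The calls of *Mstn* at E10.0, of *Wfikkn2* and *Tgfbr2* at E10.5, and all stage calls were made in every fit that left out 1 sample of the groups compared and under DESeq2, the quasi-likelihood test, RLE size factors, no filter, the replicate block, libraries numbered 1 to 3 and, where fitted, only the groups compared; *Tgfbr3* at E10.5 was the 1 call that was lost, for the samples named above, with the quasi-likelihood test and with the replicate block (0.40, adjusted *P*=0.25, edgeR). *Tgfb2* and *Tgfb3* were also called between stages in wild-type buds with the replicate block, in libraries numbered 1 to 3 and with only the groups compared, so that 4 genes were called in place of 2, while the share of all genes called was 14.2%, 14.9% and 15.9% in these fits. Leaving out 1 sample gave 2 to 4 genes there, 2 to 4 between genotypes at E10.5, where *Tgfb3* joined without mutant replicate 1 or 3 of E10.0 (adjusted *P*=0.0881 and 0.0849), 1 at E10.0, 4 to 5 between stages in mutant buds and 0 in the interaction, for which DESeq2 called 1. All same-numbered samples deviated together only in the mutant stage comparison, where they were different embryos and unlike numbers of the same kind of library did so too. Elsewhere they share only a number.

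Over all genes tested, the E10.0 genotype comparison called 819, against 1961 with the replicate block, 2018 in libraries numbered 1 to 3 and 254 (without wild-type replicate 3) to 1062 with 1 sample left out; without mutant replicate 5 it called 494. The share of these calls that was higher in the mutant was 50.4%, against 31.9% with the block, 37.9% in libraries numbered 1 to 3 and 62.1% with no filter. The E10.5 genotype comparison called 462, against 280 with the replicate block and 286 (without wild-type replicate 2) to 516. The wild-type stage comparison called 1256, against 1932 with only the groups compared and 484 (without wild-type replicate 2 of E10.0) to 1515; it called 512 without wild-type replicate 3 of E10.5, 823 without replicate 2 of E10.5 and 827 without replicate 3 of E10.0. The interaction called 23, against 87 by DESeq2, 39 with no filter, 6 in libraries numbered 1 to 3 and 7 (without mutant replicate 5 of E10.5) to 34 with 1 sample left out. Of the other pathway genes called between genotypes at E10.5, *Thbs1*, *Tll1*, *Pmepa1*, *Acta2* and *Scx* were not called with the replicate block. The causes were not tested.

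Changes of sign were seen in small log2 fold changes that had not been called. With 1 sample left out, *Tgfb1* ranged over -0.024 to 0.18, *Tgfb3* over -0.036 to 0.17 and *Tgfbr1* over -0.077 to 0.099 between genotypes at E10.0. *Tgfb1* ranged over -0.036 to 0.12 between stages in wild-type, *Tgfbr1* over -0.050 to 0.16 and *Tgfbr3* over -0.086 to 0.074 between stages in the mutant, and the interaction of *Tgfb2* over -0.11 to 0.045. With the replicate block *Tgfb1* was -0.14 and *Tgfb3* -0.17 at E10.0, and *Tgfbr1* was 0.053 at E10.5. In libraries numbered 1 to 3 *Tgfb1* was -0.14 and *Tgfb3* -0.24 at E10.0, *Tgfbr1* was 0.099 at E10.5, *Tgfbr3* was 0.35 between stages in the mutant, where it was called, and the interaction of *Tgfb2* was 0.019. *Mstn* and *Wfikkn2* at E10.0 rest on 21 to 119 reads per sample, and *Inhba* and *Inhbb* on 1 to 21, which limits what could be detected for them.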
